A study of Bos taurus with 24 samples.

Results

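The 10 genes described here, INSR, IRS1, IRS2, PIK3R1, AKT1, AKT2, SLC2A4, FOXO1, FOXO3 and PCK2, carry insulin receptor signalling and insulin-regulated glucose uptake. They were chosen by gene name in the day 4 table and joined by gene identifier to the day 7 table, and they are 10 of the 27570 genes listed. Subcutaneous fat cell precursors of 6 Holstein cows were induced to become adipocytes and sequenced as 24 libraries, 1 per cow and treatment. Cows 4 to 6 gave the day 4 cells, to which fatty acids were added while induction was under way, and cows 1 to 3 gave the day 7 cells, to which they were added from 48 h after induction. The treatments were palmitic acid (PA, saturated) at 300 µM, oleic acid (OA, monounsaturated) at 300 µM, a mixture of 60% PA and 40% OA at 300 µM in total (MIX), and the basal differentiation medium with no added fatty acid (CON). Every treatment had 3 libraries a day.

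All groups, CON included, were cultured with insulin at 5 µg/mL and the PPARG agonist troglitazone at 5 µM. For the first 48 h of induction they also had dexamethasone at 1 µM, a glucocorticoid, and isobutylmethylxanthine at 0.5 mM, a phosphodiesterase inhibitor. No group was without insulin, so the values below are RNA levels in the presence of insulin. A response to insulin itself cannot be read from them.

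Insulin binds the receptor INSR, whose kinase phosphorylates the docking proteins IRS1 and IRS2. These recruit phosphatidylinositol 3-kinase through its regulatory subunit PIK3R1, and the lipid it makes leads to activation of the kinases AKT1 and AKT2. In fat cells AKT2 brings vesicles with the glucose transporter GLUT4 (SLC2A4) to the surface, and AKT phosphorylation keeps the transcription factors FOXO1 and FOXO3 out of the nucleus. PCK2 makes phosphoenolpyruvate in mitochondria. Much of this control is by phosphorylation and transport, which RNA levels do not show.

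Day 4 libraries held 13509548 to 17071654 counts each, and day 7 libraries 14118798 to 24008811 reads as recovered from their values. Of 17 fat cell markers, 10 averaged over 1 FPKM (fragments scaled to gene length and library size) at day 4 and 7 at day 7, and they summed to 73.3 to 185 FPKM and 60.1 to 132 FPKM per library. RBP4 averaged 44.8 and 69.7 FPKM, FABP4 30.3 and 0.405 FPKM and PPARG 3.07 and 0.230 FPKM at days 4 and 7, while ADIPOQ had 3 reads over the 12 libraries of day 4 and 0 over those of day 7. The collagen gene COL1A1 averaged 3671 and 6494 FPKM. Macrophage and leukocyte markers summed to 5.27 to 10.995 FPKM at day 4 and 2.19 to 6.17 FPKM at day 7, endothelial markers to 0.897 to 2.45 and 0.642 to 1.39 FPKM, and epithelial and mesothelial markers to 2.54 to 4.49 and 1.78 to 14.4 FPKM. The highest of these were CD68 at day 4 with 4.48 FPKM, TEK at day 4 with 0.861 FPKM and MSLN at day 7 with 6.06 FPKM, whereas PTPRC, PECAM1 and EPCAM had at most 12 reads each over a day's libraries and the muscle factors MYOD1 and MYOG had 0. In these bulk samples fewer cells of a type and less RNA per cell cannot be told apart. Where the 2 days are set side by side, different cows, separately normalized tables and a different time of fatty acid addition lie between them. Levels were therefore not tested between days. A change between days below is that of a difference between treatments. In it the day, the cows and the timing of the fatty acids cannot be told apart.

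All 10 genes were measured and passed the filters on low values at both days. AKT1 had the highest level per length at both days, with 111 ± 24.2 FPKM at day 4 and 144 ± 8.71 FPKM at day 7 (SD over 12 libraries). At day 4 it was followed by PIK3R1 with 45.1 ± 27.7 FPKM, AKT2 with 40.3 ± 8.27 FPKM and IRS2 with 34.1 ± 17.0 FPKM, whose ranges over libraries overlapped. FOXO3, FOXO1 and PCK2 lay together at 25.4 ± 17.7, 25.1 ± 8.01 and 24.3 ± 6.40 FPKM. IRS1 averaged 10.3 ± 1.06 FPKM, INSR 2.40 ± 0.438 FPKM and SLC2A4 0.795 ± 0.559 FPKM. The receptor and the transporter were its lowest transcripts. At day 7 the order below AKT1 was PCK2 (48.8 ± 16.4 FPKM), IRS2 (39.3 ± 11.2 FPKM), AKT2 (38.2 ± 2.96 FPKM), IRS1 (22.8 ± 10.3 FPKM), FOXO3 (19.3 ± 5.72 FPKM), PIK3R1 (18.5 ± 3.83 FPKM), FOXO1 (13.2 ± 3.09 FPKM), SLC2A4 (3.05 ± 1.40 FPKM) and INSR (1.83 ± 0.455 FPKM).

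**Figure D1:**
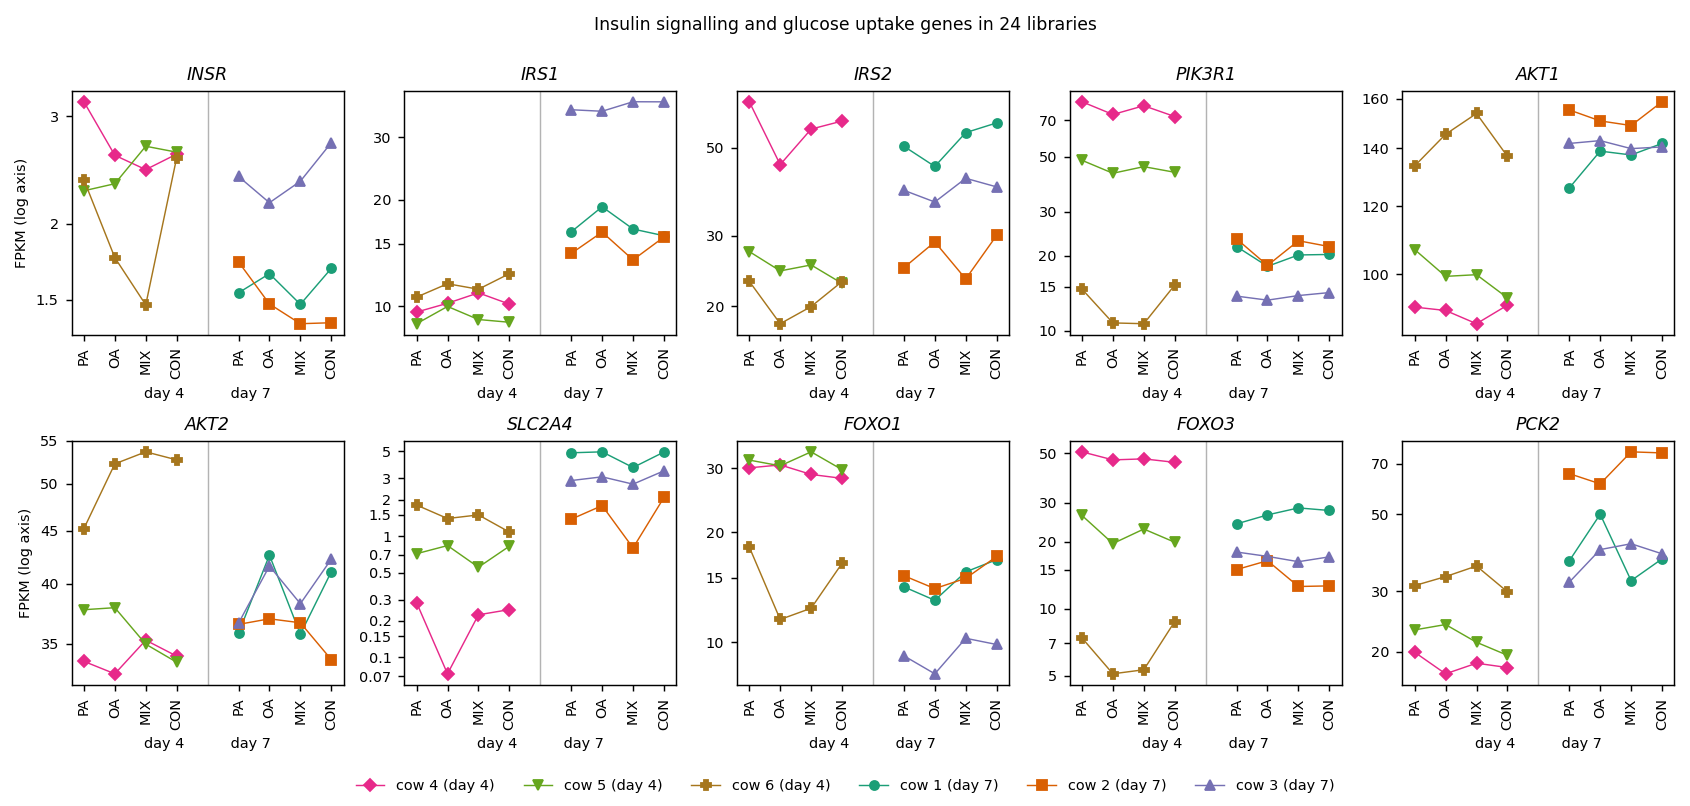
FPKM on log axes of the 10 genes in each library, with day 4 left and day 7 right of the grey line and the 4 treatments of a cow joined by a line. The lines of different cows lie apart while each line is comparatively flat; PIK3R1 and FOXO3 of cow 6 lie far below those of cow 4, and SLC2A4 of cow 4 is lowest with OA.

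Levels of nearly every gene of the 10 differed more by cow than by fatty acid. The animal, its cells in culture and their libraries cannot be told apart in this. PIK3R1 averaged 77.5 FPKM in cow 4 and 12.8 FPKM in cow 6, a 6.04-fold spread, while the largest fold between treatments of 1 cow was 1.43. FOXO3 spread 7.13-fold and SLC2A4 6.98-fold between cows at day 4. At day 7 IRS1 averaged 36.7 FPKM in cow 3 and 14.9 FPKM in cow 2, a 2.46-fold spread against at most 1.21-fold between treatments of a cow. Of the sum of squares of log2(FPKM + 1) over 12 libraries, cow took 98.2% for PIK3R1 and 97.1% for FOXO3 at day 4, against a median of 86.6% over all genes tested. AKT2 at day 7 was the exception among the 10, with 31.3% for cow, 32.3% for treatment and 36.4%, the largest share, for the remainder, against medians over all genes of 78.0% for cow and 6.55% for treatment. INSR at day 4 came next, with 42.9% for cow and 21.0% for treatment.

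**Figure D2:**
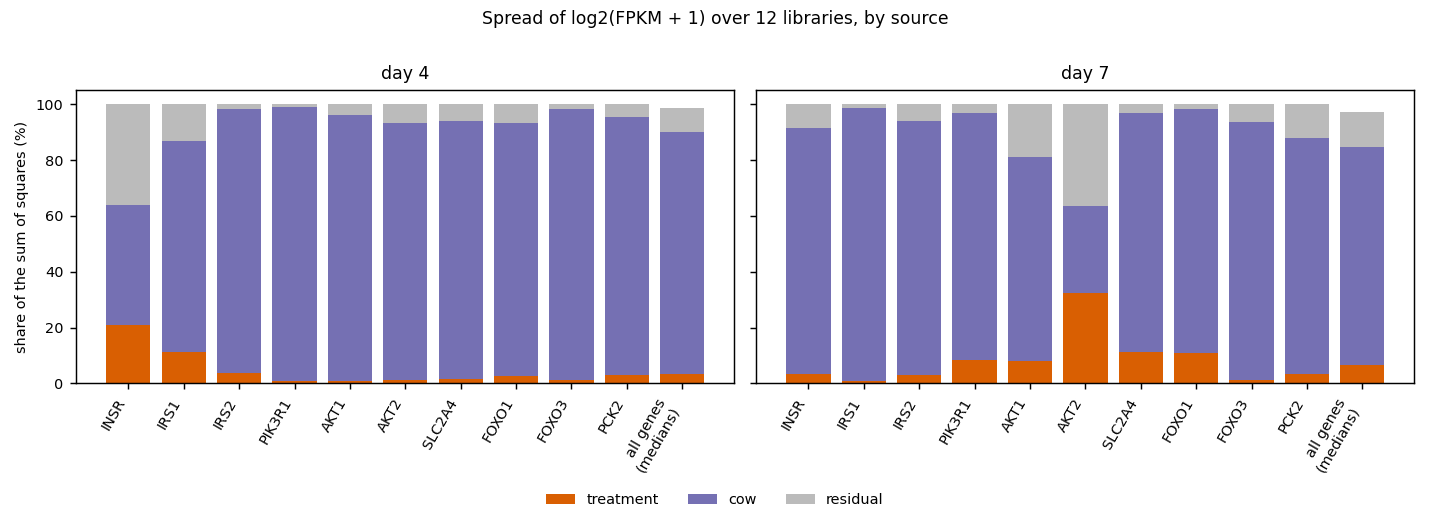
Share of the sum of squares of log2(FPKM + 1) over the 12 libraries of a day that falls to treatment, cow and the remainder, for the 10 genes and as medians over all genes tested. Cow takes the largest share for each gene except AKT2 at day 7, where cow takes 31.3%, treatment 32.3% and the remainder 36.4%.

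Treatments were compared over cows. Without cow in the fit, p-values set a difference against the spread between these animals. With cow as a block, they set it against how far differences between treatments vary from cow to cow. Without cow in the fit, no gene of the 13580 tested at day 4 with edgeR or the 12615 tested at day 7 with limma passed an adjusted p of 0.05 in any of the 6 comparisons a day (0.0% called each), and no comparison of the 10 genes had even an unadjusted p under 0.05, which 15 to 24 of all genes had at day 4 and 48 to 87 at day 7. With cow as a block, which matches the 4 treatments of each animal, 0 of the 10 genes passed either, where 0.0736% of all genes were called for OA against CON at day 4, 0.221% for OA against PA at day 4 and 0.0% in each other comparison. The lowest adjusted p was 0.0771 at day 4 and 0.321 at day 7. Differences below are log2 differences with their SE from the fit with cow as a block, from counts at day 4 and on the log2(FPKM + 1) scale at day 7, and none passed the threshold unless said. Comparisons of PA, OA and MIX with CON share the CON libraries, and those of OA and MIX with PA share the PA libraries, so their values are given side by side only. For a given comparison and direction, 9.7% to 17% of all genes went that way in 3 of 3 cows.

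The lowest p-value of the family was that of IRS2 with OA against PA at day 4. In that comparison 3 of the 10 genes, IRS2, PIK3R1 and FOXO3, had an unadjusted p under 0.05 and all were lower with OA, where 6.94% of all genes had such a p and 3.29% had it in the lower direction. The median of the 10 differences was -0.22, and that of all genes was -0.00212. The 30 genes called there with the block, none of the 10 among them, became 199 without cow 6, among them IRS2, 9 without cow 4 and 0 without cow 5.

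IRS2, the docking protein that predominates in hepatic insulin signalling in mice and is also used in fat, lies on chromosome 12 from 84650925 to 84655079 on the minus strand (the assembly is not given in the sources used here, as for all positions below). At day 4 its level was 45.3, 24.5 and 18.1 FPKM with OA in cows 4, 5 and 6, against 65.2, 27.4 and 23.1 FPKM with PA. MIX gave 55.6, 25.4 and 19.9 FPKM, and CON gave 58.3, 22.8 and 23.0 FPKM in the same cows. OA was below PA in each cow, and MIX lay between them in each, although the groups overlapped because the cows differ. The log2 difference of OA from PA was -0.35 ± 0.08 (adjusted p = 0.0771, edgeR with the block; lower in 3 of 3 cows), and the differences within cows 4, 5 and 6 were -0.524, -0.161 and -0.354. Without the block the difference was -0.40 ± 0.57 (adjusted p = 0.99998). MIX differed from PA by -0.19 ± 0.08 (adjusted p = 1.00, lower in 3 of 3 cows), and OA from CON by -0.22 ± 0.08 (adjusted p = 0.777, lower in 2 of 3 cows).

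Whether IRS2 with OA and PA is called depends on the setting. With cow as a block it passed with DESeq2 (-0.35, adjusted p = 0.0204), with no filter on low counts (-0.35, adjusted p = 0.00212), without cow 6 (-0.36, adjusted p = 0.00378) and with the balance of long and short genes described below as a covariate (-0.33, adjusted p = 0.00685), a setting chosen after seeing the data. It did not pass without cow 4 (-0.25, adjusted p = 1.00), without cow 5 (-0.45, adjusted p = 0.377) or with limma on log2(FPKM + 1) (-0.34, adjusted p = 0.369), and the direction was the same in each. In the authors' deposited table IRS2 with OA over PA was the lowest p among the members as well, at 0.448 with no member under an adjusted p of 0.999923. Smooth muscle markers accompanied this comparison: 7 of the 13 tested had an unadjusted p under 0.05, which 6.94% of all genes had, and their summed level was 1901 to 4665 FPKM with OA and 1788 to 4284 FPKM with PA. Their part in the IRS2 difference was not tested.

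At day 7 the IRS2 values were 44.8, 29.0 and 36.5 FPKM with OA in cows 1, 2 and 3, 50.4, 24.96 and 39.1 FPKM with PA, 54.5, 23.4 and 41.9 FPKM with MIX, and 57.7, 30.1 and 39.8 FPKM with CON. OA and PA crossed between cows, with a difference of -0.02 ± 0.10, and both were below CON in each cow with differences of -0.18 ± 0.10 and -0.16 ± 0.10. PA was above CON in 3 of 3 cows at day 4 (0.13 ± 0.08) and below it in 3 of 3 at day 7. The change of the PA difference between days was -0.30 ± 0.14 (unadjusted p = 0.0450, adjusted p = 0.999, limma), and that of OA against PA was 0.32 ± 0.14 (adjusted p = 0.707). Among all genes 12.5% were higher with PA in 3 of 3 cows at day 4 and 14.5% lower in 3 of 3 at day 7.

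PIK3R1, the regulatory subunit p85 alpha of class I phosphatidylinositol 3-kinase, lies on chromosome 20 from 11397628 to 11480087 (minus strand). It was lower with OA than with PA in every cow of both days. Among all genes 13% were lower in 3 of 3 cows at day 4 and 12.6% at day 7. At day 4 it had 73.9, 42.9 and 10.7 FPKM with OA in cows 4, 5 and 6, against 83.2, 48.4 and 14.7 FPKM with PA. CON gave 72.5, 43.3 and 15.2 FPKM and MIX 80.2, 45.6 and 10.7 FPKM in these cows. There OA differed from CON by -0.16 ± 0.09, lower in 2 of 3 cows, with cow 6 the furthest below. MIX differed from PA by -0.18 ± 0.09, lower in 3 of 3 cows. At day 7 it had 18.1, 18.3 and 13.2 FPKM with OA in cows 1, 2 and 3, against 21.8, 23.4 and 13.8 FPKM with PA. The direction within cows was uniform, while the OA and PA groups overlapped at both days. The log2 differences of OA from PA were -0.25 ± 0.09 at day 4 (adjusted p = 0.444) and -0.21 ± 0.06 at day 7 (adjusted p = 0.321, limma). At day 7 OA was also below CON, with 20.2, 21.8 and 14.2 FPKM, by -0.16 ± 0.06 (adjusted p = 0.500), and MIX was above OA by 0.17 ± 0.06 (adjusted p = 0.395), in 3 of 3 cows each. PIK3R1 was the only member with an unadjusted p under 0.05 in the comparison of OA with PA at day 7, a comparison in which 11.5% of all genes had one.

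**Figure D3:**
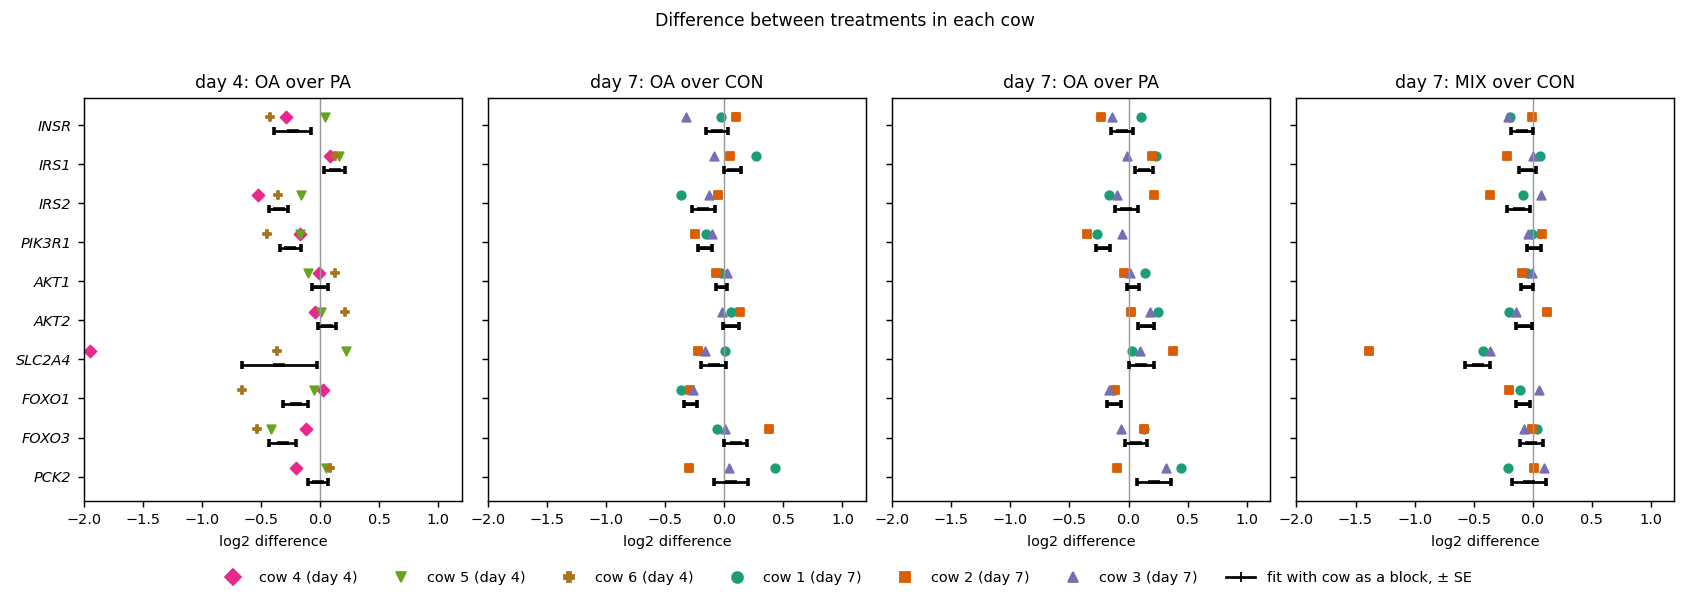
Log2 differences of the 10 genes in each cow (coloured markers) and from the fit with cow as a block (black, ± SE), for OA over PA at day 4 and for OA over CON, OA over PA and MIX over CON at day 7. IRS2, PIK3R1 and FOXO3 lie left of 0 in all 3 cows of the first panel, IRS2, PIK3R1 and FOXO1 in the second, PIK3R1 and FOXO1 in the third, and SLC2A4, INSR and AKT1 in the fourth, where SLC2A4 of cow 2 is at -1.38.

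FOXO1, the factor that represses fat cell differentiation in mouse cells and is inactivated by AKT, lies on chromosome 12 from 21900230 to 21991693 (plus strand). At day 7 it had 13.02, 14.0 and 8.18 FPKM with OA in cows 1, 2 and 3. PA gave 14.2, 15.2 and 9.17 FPKM and MIX gave 15.6, 14.96 and 10.2 FPKM, against 16.8, 17.2 and 9.85 FPKM with CON. OA was the lowest treatment in each cow. The log2 difference of OA from CON was -0.29 ± 0.06 (adjusted p = 0.424, limma), with -0.370, -0.293 and -0.267 within the cows. PA differed from CON by -0.16 ± 0.06 (adjusted p = 0.998) and MIX from OA by 0.21 ± 0.06 (adjusted p = 0.350), each the same way in 3 of 3 cows. FOXO1 and PIK3R1 were the 2 members with an unadjusted p under 0.05 for OA against CON at day 7, where 9.27% of all genes had one. At day 4 FOXO1 with OA was below CON in 1 of 3 cows, cow 6, with 11.5 FPKM with OA and 16.4 FPKM with CON, and the change of this difference between days was -0.18 ± 0.15 (adjusted p = 0.959).

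FOXO3, its relative with many shared targets, lies on chromosome 9 from 41522588 to 41620269 (minus strand). At day 4 it had 46.6, 19.6 and 5.11 FPKM with OA in cows 4, 5 and 6, against 50.7, 26.2 and 7.40 FPKM with PA. The difference was -0.32 ± 0.12 (adjusted p = 0.494), lower in 3 of 3 cows. CON gave 45.5, 19.9 and 8.77 FPKM and MIX 47.1, 22.8 and 5.33 FPKM in these cows. OA differed from CON by -0.19 ± 0.12, lower in 2 of 3 cows, with cow 6 the furthest below. MIX differed from PA by -0.22 ± 0.12, lower in 3 of 3 cows. At day 7 OA and PA differed by 0.06 ± 0.10, with 26.4, 16.4 and 17.2 FPKM for OA and 24.1, 15.01 and 18.0 FPKM for PA. The change between days was 0.39 ± 0.18 (adjusted p = 0.716). The balance of the 2 factors differed by cow: the median FOXO1 over FOXO3 ratio of FPKM was 0.616 in cow 4, 1.48 in cow 5 and 2.29 in cow 6 at day 4, and 0.569, 1.10 and 0.542 in cows 1, 2 and 3 at day 7.

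At day 4 the levels of PIK3R1, FOXO1 and FOXO3, like those of other members, went with a property of the library. In each library the median deviation of long genes (3612 bases or more at day 4 and 3524 or more at day 7) minus that of short genes (at most 1532 and 1440 bases) was taken on the log2 scale. In cow 6 this balance was -0.302 with OA, -0.237 with PA, -0.337 with MIX and -0.211 with CON, against 0.163 to 0.177 in cow 4 and 0.0954 to 0.113 in cow 5. By cow mean INSR, IRS2, PIK3R1, FOXO1 and FOXO3 were lowest in cow 6 at day 4. Highest there were IRS1, AKT1, AKT2, SLC2A4 and PCK2. Within cows the balance correlated at day 4 with PIK3R1 (r = 0.871), FOXO1 (0.852), INSR (0.831) and FOXO3 (0.827). The balance varied little within cows 4 and 5, so correlations at day 4 rest mostly on the libraries of cow 6. At day 7 those of these genes were 0.522, 0.818, 0.317 and 0.00871, in the same order. IRS2 had 0.422 and 0.637 at days 4 and 7, and IRS1 had 0.214 and -0.245. AKT1, AKT2, SLC2A4 and PCK2 had -0.627, -0.322, -0.288 and -0.525 at day 4. At day 7 they had -0.0418, -0.547, -0.0113 and -0.533, so AKT1 and SLC2A4 were close to no correlation there. FOXO1 and FOXO3, at 3306 and 2191 bases, are not among the long genes. At day 7 the balance was lower with OA than with CON in all 3 cows, at 0.0210 against 0.0927 in cow 1, -0.0263 against 0.00492 in cow 2 and -0.141 against -0.0532 in cow 3. With this balance as a covariate beside the block, FOXO1 with OA against CON at day 7 was -0.19 (adjusted p = 0.613), PIK3R1 with OA against PA was -0.33 at day 7 (adjusted p = 0.257) and -0.19 at day 4 (adjusted p = 0.176), and FOXO3 with OA against PA at day 4 was -0.26 (adjusted p = 0.145). What sets the balance was not tested.

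**Figure D4:**
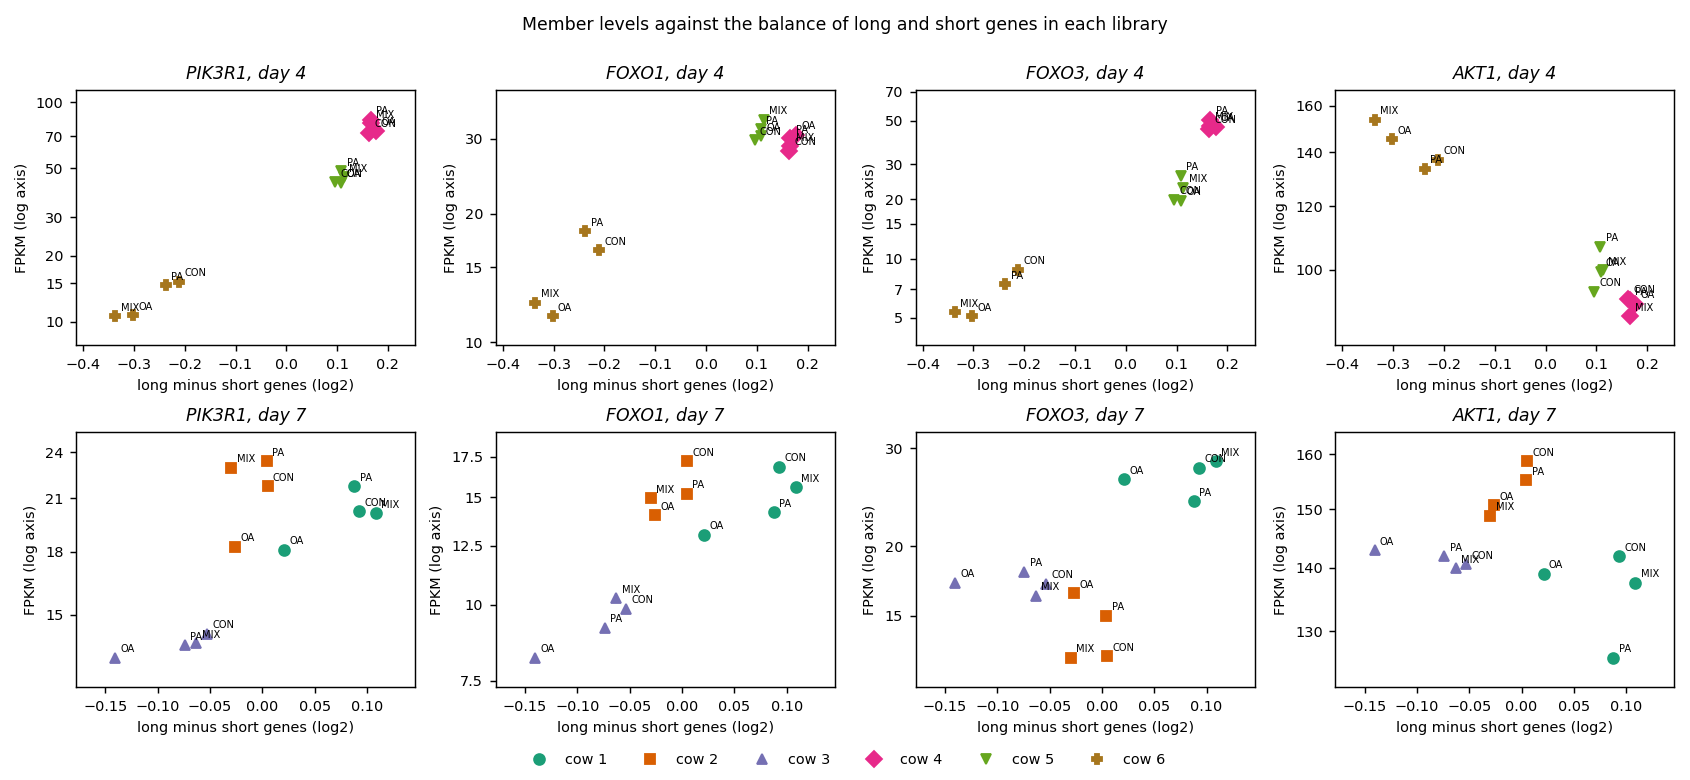
FPKM (log axis) of PIK3R1, FOXO1, FOXO3 and AKT1 in each library against the difference of the median log2 deviations of long and short genes, with day 4 above and day 7 below and markers labelled by treatment. At day 4 the 4 libraries of cow 6 lie at -0.337 to -0.211, low for PIK3R1, FOXO1 and FOXO3 and high for AKT1.

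SLC2A4, the insulin-responsive transporter GLUT4, lies on chromosome 19 from 26983928 to 26990339 (plus strand). At day 4 it was near the lower limit, with 4 to 85 reads per library. OA gave 0.0733, 0.836 and 1.40 FPKM in cows 4, 5 and 6, against 0.283, 0.717 and 1.81 FPKM with PA, and the 4 reads of cow 4 with OA were the fewest. At day 7 it had 3.68, 0.800 and 2.68 FPKM with MIX in cows 1, 2 and 3 (190, 44 and 200 reads), against 4.94, 2.09 and 3.46 FPKM with CON (411, 134 and 207 reads). MIX was the lowest treatment in each cow, since OA gave 4.96, 1.79 and 3.08 FPKM and PA 4.87, 1.38 and 2.88 FPKM. The difference of MIX from CON was -0.46 ± 0.11 on the log2(FPKM + 1) scale (adjusted p = 1.00, limma), which understates low genes: within cows 1, 2 and 3 the log2 ratios of FPKM were -0.423, -1.38 and -0.365. MIX differed from OA by -0.38 ± 0.11 (adjusted p = 0.361) and from PA by -0.27 ± 0.11 (adjusted p = 0.999), lower in 3 of 3 cows. SLC2A4 was the 1 member with an unadjusted p under 0.05 for MIX against CON at day 7, where 3.41% of all genes had one. The span of SLC2A4 overlaps YBX2 on the opposite strand, which averaged 4.51 FPKM at day 7. The strand setting is not given and shared exon bases were not examined. Whether reads of 1 of these genes were counted for the other is therefore not known.

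AKT2, the AKT kinase that GLUT4 transport depends on in mice, lies on chromosome 18 from 49628437 to 49658477 (minus strand). At day 7 it had 42.6, 37.0 and 41.6 FPKM with OA in cows 1, 2 and 3, against 35.8, 36.5 and 36.6 FPKM with PA. The lowest OA library was above the highest PA library, a separation that 2.73% of all genes showed, and no other member had it in this comparison. The difference was 0.15 ± 0.07 (adjusted p = 0.447), and in cow 2 it was 0.0180. CON spanned both, with 41.1, 33.8 and 42.2 FPKM. At day 4 the differences of AKT2 lay between -0.03 and 0.07. AKT1, the more widely used kinase, on chromosome 21 from 69230378 to 69247284 (minus strand), had differences between 0.00037 and 0.05 at day 4 and between -0.06 and 0.04 at day 7, each with an SE of 0.07 or 0.05. AKT1 exceeded AKT2 per length in all libraries, 2.49-fold to 2.95-fold at day 4 and 3.26-fold to 4.70-fold at day 7.

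The receptor and its other docking protein had no unadjusted p under 0.05 with cow as a block, nor did AKT1, AKT2 and PCK2. INSR, on chromosome 7 from 16058828 to 16183062 (minus strand), had 2.59, 2.32 and 1.76 FPKM with OA in cows 4, 5 and 6, 2.45, 2.68 and 1.47 FPKM with MIX, and 2.60, 2.62 and 2.56 FPKM with CON. The differences from CON were -0.24 ± 0.16 for OA and -0.27 ± 0.16 for MIX (adjusted p = 0.976 and 0.994), and cow 6 was the lowest in both. INSR rests on 108 to 255 reads a library. At day 7 its differences lay between -0.09 and 0.00, each ± 0.09. IRS1, on chromosome 2 from 114988515 to 115174824 (minus strand), had 10.2, 10.0 and 11.6 FPKM with OA at day 4, against 9.64, 8.94 and 10.6 FPKM with PA, a difference of 0.12 ± 0.09 that was positive in 3 of 3 cows (adjusted p = 0.885). At day 7 that difference was 0.13 ± 0.07 (adjusted p = 0.515), positive in 2 of 3 cows. The IRS1 span overlaps RHBDD1 on the opposite strand, at 5.60 FPKM at day 4 and 4.61 FPKM at day 7, so its reads carry the same limit as those of SLC2A4. IRS2 exceeded IRS1 per length in all libraries, with median ratios of 5.42, 2.64 and 1.82 in cows 4, 5 and 6 and 3.20, 1.78 and 1.07 in cows 1, 2 and 3.

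PCK2, the mitochondrial phosphoenolpyruvate carboxykinase, lies on chromosome 10 from 21036261 to 21044548 (minus strand). At day 4 it had 20.0, 23.2 and 31.1 FPKM with PA, 18.6, 21.3 and 35.5 FPKM with MIX, and 18.0, 19.6 and 29.9 FPKM with CON, so both were above CON in 3 of 3 cows, by 0.14 ± 0.09 and 0.13 ± 0.09 (adjusted p = 1.00 and 0.994). At day 7 PA gave 36.7, 65.6 and 31.8 FPKM and CON 37.2, 75.3 and 38.5 FPKM, lower in 3 of 3 cows, a difference of -0.16 ± 0.14 (adjusted p = 0.998). The cytosolic form PCK1, which serves glyceroneogenesis in fat, averaged 0.0330 FPKM at day 4 and 0.0688 FPKM at day 7, with 15 and 41 reads over all libraries.

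The rest of the pathway was read from 9 lists of related genes. Without the block 0 genes of any list passed in any comparison. With it 1 did, CITED2, a transcriptional coregulator named among FOXO targets. CITED2 had 182, 67.7 and 53.4 FPKM with OA in cows 4, 5 and 6, against 232, 83.1 and 74.2 FPKM with PA at day 4, a log2 difference of -0.38 ± 0.07 (adjusted p = 0.0202, edgeR with the block) in 3 of 3 cows. In that comparison 9 of the 12 FOXO factors and targets tested were lower and 3 higher, with a median of -0.24 against -0.00212 for all genes, and 8 had an unadjusted p under 0.05, which 6.94% of all genes had. At day 7 the same comparison gave 6 higher and 5 lower of 11, with a median of 0.00366 against 0.0119 for all genes.

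Among receptor substrates, adaptors and brakes, IGF1R, the related receptor that insulin also binds at high dose, averaged 30.7 ± 1.36 FPKM at day 4 and 29.0 ± 2.73 FPKM at day 7, well above INSR. IRS4 and GRB14 had no reads, which at 3 counts per library allows up to 0.222 CPM (counts scaled to library size). SOCS3, a brake on insulin and cytokine receptors, averaged 8.66 FPKM with OA and 6.17 FPKM with PA at day 4 (0.47 ± 0.20, adjusted p = 0.650), and 21.3 FPKM with OA and 15.8 FPKM with PA at day 7 (0.50 ± 0.17, adjusted p = 0.345). GAB1, an adaptor for phosphatidylinositol 3-kinase, averaged 4.17 FPKM with OA and 5.06 FPKM with CON at day 7 (-0.24 ± 0.07, adjusted p = 0.434, lower in 3 of 3 cows). PTPN1, the phosphatase that removes phosphate from INSR, averaged 14.2 FPKM with OA and 12.4 FPKM with PA at day 7 (0.18 ± 0.07, adjusted p = 0.362). Of the PI3K subunits and PIP3 phosphatases, 9 of 10 tested were lower with OA than with PA at day 4, where 49.3% of all genes were higher. None of the 10 had an unadjusted p under 0.05, which 6.94% of all genes had. At day 4, 9 of 10 were also lower in each of OA against CON, MIX against CON and MIX against PA. Of all genes 47.9%, 49.8% and 51.1% were higher there. The medians of these 3 were -0.047, -0.086 and -0.136, and that of OA against PA was -0.064. With PA against CON 7 were higher and 3 lower. PIK3CA, the catalytic subunit, lay at 27.7 ± 15.2 FPKM with OA and 28.3 ± 13.2 FPKM with PA at day 4.

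Of the mTORC1 branch, DDIT4, an inhibitor of mTORC1, averaged 96.3 FPKM with PA and 95.5 FPKM with MIX, against 79.4 FPKM with CON at day 4 (0.30 ± 0.07 and 0.23 ± 0.07, adjusted p = 0.443 and 0.994, higher in 3 of 3 cows each). In the list of AKT, mTORC2 and their regulators, TRIB2, a pseudokinase that binds AKT, averaged 3.15 FPKM with OA and 2.40 FPKM with PA at day 7 (0.28 ± 0.10, adjusted p = 0.350). Of GLUT4 vesicle traffic, 0 of 19 genes had an unadjusted p under 0.05 in any comparison at day 4. Among all genes 2.97% to 6.94% had one, depending on the comparison. At day 7 the small GTPase RAB14 averaged 37.2 FPKM with OA and 42.1 FPKM with CON (-0.17 ± 0.05, adjusted p = 0.426). The transporters SLC2A1 (GLUT1) and SLC2A3 (GLUT3) were far above SLC2A4, at 14.5 and 13.7 FPKM at day 4 and 20.0 and 45.7 FPKM at day 7. SLC2A3 averaged 12.6 FPKM with OA and 15.3 FPKM with PA at day 4 (-0.29 ± 0.09, adjusted p = 0.327, lower in 3 of 3 cows), but 55.2 FPKM with OA and 39.0 FPKM with PA at day 7 (0.52 ± 0.20, adjusted p = 0.380, higher in 2 of 3 cows). Of the gluconeogenic and glyceroneogenic enzymes, G6PC3 averaged 78.7 FPKM with OA and 69.5 FPKM with PA at day 4 (0.16 ± 0.08, adjusted p = 0.714). Of the amino acid response genes, which like PCK2 include targets of ATF4, DDIT3 was lower with OA than with PA in 3 of 3 cows of each day (-0.18 ± 0.09 and -0.28 ± 0.09, adjusted p = 0.707 and 0.329).

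For each member the 3 genes with the most similar pattern were sought among 10147, by the correlation of their deviations from the cow mean over 12 libraries at each day, ranked by the lower of the 2 days. This is a description over libraries that share cows, treatments and depth. IRS1 was most like SOCS3 (r = 0.838 at day 4 and 0.903 at day 7), EXT1 and VDAC2. PIK3R1 was most like PEAK1 (0.963 and 0.891), NOTCH2 and DICER1, and FOXO3 was most like ZBTB16 (0.960 and 0.826), NMT1 and ITPRIP. FOXO1 was most like SCAF8 (0.841 and 0.810), with FOXJ3 also among its 3, IRS2 most like ADAMTS5, DNAAF5 and KIAA1217, and PCK2 most like HEBP1, PLD3 and BABAM1. For INSR these were APAF1, DCUN1D1 and GXYLT1, for AKT1 SEC61A1, TTLL12 and CTBP1, for AKT2 PSMG4, ABHD12 and LRPAP1, and for SLC2A4 PDK3, H3F3A and PNRC1, the last with r of 0.644 and 0.663.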

How the data were processed

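RNA-seq libraries of 6 cows were analysed. The submitters' processing notes name featureCounts 1.5.0-p3, StringTie 1.3.3b and FastQC 0.11. Their roles, and any aligner, build or strand setting, are not stated by the labels used here. Of day 4 the authors deposited a raw count per gene and library, their FPKM, and for each comparison their log2 fold change, p-value and adjusted p-value, with Basal standing for CON and the first-named group over the second. For day 7 the authors deposited FPKM alone. Reads were recovered from the day 7 FPKM with gene length (100% whole within 0.01) and used only in alternatives. The tables hold 26 names turned into dates, kept by identifier.

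Day 4 counts were filtered with filterByExpr, scaled by TMM and tested with edgeR 4.0.16's quasi-likelihood test. Day 7 values with at least 1 FPKM in 3 libraries were put on log2(FPKM + 1) and tested with limma 3.58.1, as was the change between days, in R 4.3.3. P-values were adjusted over all genes by Benjamini and Hochberg (threshold 0.05, two-sided). The fits were tested on simulated data. Figures used Python 3.11.15 and matplotlib 3.10.9. No sequences of the genes were used here.

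Cow numbers name the same animal in the 4 treatments of a day. Deviations from group means correlated at 0.795 to 0.947 in the 18 pairs of day 4 libraries from 1 cow (other pairs reached at most 0.134) and 0.772 to 0.864 in the 18 of day 7 (other pairs at most -0.31). The fit with cow as a block is therefore given beside the fit without it.

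All members are named. Of 9 pathway lists and 7 marker lists, genes past the threshold are named, and otherwise genes among the 3 of a pathway list with the smallest p in the test of any treatment. The members and lists were chosen with earlier results of these data known. Intervals and limits from counts cover counting error only. Alternatives were DESeq2 1.42.0, limma in place of edgeR, no filter, a pseudocount of 0.1, recovered reads, leaving out each cow, and the covariate for the balance of long and short genes, which was added after seeing the data. A gene among those with the pattern most like FOXO1 is not reported here.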

Additional observations from a re-analysis of the deposited data

How the results depend on the processing

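With the filters and no replicate block 0 genes were called in each comparison of both days, and pairing by cow decided the counts at day 4. There the replicate block called 10 genes for OA against CON, 30 for OA against PA and 15 for any treatment, and DESeq2 with the block called 30, 49 and 44 and, for MIX against CON, 3. Without a filter the block gave 14 (PA against CON), 52 (OA against CON), 14 (MIX against CON), 117 (OA against PA), 10 (MIX against PA), 7 (MIX against OA) and 119 (any treatment), and the long and short gene covariate gave 11, 46, 11, 109, 5 (in the same order, leaving out MIX against OA) and 75. Limma with the block gave 3 (OA against PA), 2 (MIX against OA) and 2 (any treatment). Leaving out each cow gave 0 to 20, 0 to 74, 0 to 13, 0 to 199, 0 to 25, 0 to 8 and 0 to 147 in the order above, the highest each time without cow 6 with the block; OA against PA had 9 without cow 4. At day 7 no filter, also with no block, gave 2 for PA, OA and MIX against CON and any treatment, recovered reads with the block gave 8 (OA against PA), 2 (MIX against OA) and 1 (any treatment), and the covariate gave 8 and 1.

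Of the members, IRS2 with OA against PA at day 4 was called in 4 alternatives, and no other difference of a member was. Of 222 alternative values for the 18 member differences with an unadjusted p under 0.05 with the block, 218 stayed on the same side of the threshold and 0 reversed. All 18 were uncalled to begin with, so staying on that side is no measure of robustness. Over all member differences 223 of 1976 alternative values changed sign, 0 of them past the threshold, which only 4 of the 1976 passed. The causes were not tested. TMM and DESeq2 scaling differed by less than 0.008 in log2. With 3 cows a group, and 4 to 85 reads for SLC2A4 at day 4, small differences are not detectable at this depth.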

Other observations

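Among the cell type markers, 2 genes passed the threshold at day 4 with cow as a block and none without it. CD36, a fatty acid transporter and adipocyte marker, had 2.95, 4.29 and 7.65 FPKM with OA in cows 4, 5 and 6, against 1.14, 2.81 and 5.32 FPKM with CON (0.77 ± 0.14, adjusted p = 0.0166, edgeR). It averaged 3.92 FPKM at day 4 and 0.211 FPKM at day 7, where it was below the filter. ACTG2, a smooth muscle actin, had 24.3, 23.7 and 512 FPKM with OA, against 13.6, 14.5 and 402 FPKM with CON (0.59 ± 0.09, adjusted p = 0.00715), and 18.5, 15.1 and 418 FPKM with PA (0.43 ± 0.09, adjusted p = 0.0466). ACTG2 is near-identical to ACTA2, so its counts are uncertain. Cow 6 held the highest level of both. Other adipocyte, smooth muscle, preadipocyte, skeletal muscle, leukocyte, endothelial and epithelial markers had 0 genes past the threshold, with or without the block.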
